A study of Mus musculus with 9 samples.

Results

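The genes described here are 10 markers of dentate granule neurons, Prox1, Dock10, Trpc6, C1ql2, Dsp, Tdo2, Plk5, Stxbp6, Calb1 and Maml2, among 18820 genes measured in mouse hippocampus. They form a fixed list of gene names. The list was chosen by the difference between 2 groups of arrays: it was proposed after granule cell genes had been seen to stand higher in mice given Maresin 1 before surgery than in mice with surgery alone, so values of that comparison describe the genes and are given without a test. All 10 genes were found on the array. Each was represented by the probe set with the highest mean among those annotated to that gene alone.

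Hippocampal RNA came from C57BL/6 mice, 12 to 14 weeks old, and was read on 9 Affymetrix arrays, 3 in each of 3 groups. The mice of the Surgery+Maresin1 group received Maresin 1, a lipid mediator derived from docosahexaenoic acid, and then a tibia fracture under surgery, those of the Surgery group had the same fracture without it, and those of the Control group had neither by their labels. Tissue was taken 72 h after surgery. No sham or anaesthesia control and no group given Maresin 1 alone is among the arrays analysed here, and arrays within a group are labelled biological replicates.

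Granule neurons are the principal cells of the dentate gyrus, the entry gate of the hippocampus, where input from the entorhinal cortex arrives. Their axons, the mossy fibres, end on pyramidal neurons of field CA3, which in turn project to CA1. Unlike most neurons of the adult brain, granule cells continue to be produced from local progenitors. Most of their marker genes are weak in neighbouring pyramidal fields, so that the level in bulk tissue depends on how much dentate gyrus a sample holds as well as on how much RNA each granule cell makes. In bulk tissue, fewer cells of a type and less RNA per cell cannot be told apart.

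RefSeq promoter windows of GRCm38.p6, from 250 bases before to 50 bases after a transcript start, were listed for 9 of the 10 genes. Those of Trpc6, Dock10 and Prox1 are shown because these genes are the cation channel with the widest difference between Maresin 1 and surgery, the exchange factor that also separated the Maresin 1 arrays from control, and the gene that sets granule cell identity. Capitals mark CAGATG on either strand, the E-box form bound by NeuroD factors. It is a special case of the general E-box CANNTG.
Trpc6: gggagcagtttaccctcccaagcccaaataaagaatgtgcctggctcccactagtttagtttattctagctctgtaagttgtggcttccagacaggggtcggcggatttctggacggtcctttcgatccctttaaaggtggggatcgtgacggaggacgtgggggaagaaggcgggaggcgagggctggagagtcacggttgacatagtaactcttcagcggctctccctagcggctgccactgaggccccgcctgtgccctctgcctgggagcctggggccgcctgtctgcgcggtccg
Dock10: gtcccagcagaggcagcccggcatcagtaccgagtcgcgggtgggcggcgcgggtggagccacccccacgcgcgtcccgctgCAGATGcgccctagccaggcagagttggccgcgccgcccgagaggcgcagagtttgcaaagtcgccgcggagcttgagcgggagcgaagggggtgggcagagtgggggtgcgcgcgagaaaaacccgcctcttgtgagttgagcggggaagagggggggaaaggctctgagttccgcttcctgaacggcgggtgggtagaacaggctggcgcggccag
Prox1: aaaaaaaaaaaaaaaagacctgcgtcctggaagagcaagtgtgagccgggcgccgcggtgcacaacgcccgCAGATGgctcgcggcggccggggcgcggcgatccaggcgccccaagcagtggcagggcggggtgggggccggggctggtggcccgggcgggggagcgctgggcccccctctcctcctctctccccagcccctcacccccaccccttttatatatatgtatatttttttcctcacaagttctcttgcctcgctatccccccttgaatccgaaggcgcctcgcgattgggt
The windows lie at chr9:8543892-8544191 on the plus strand for Trpc6, chr1:80758504-80758803 on the minus strand for Dock10 and chr1:190170778-190171077 on the minus strand for Prox1. Where several starts were listed, the most upstream was taken. CAGATG or its reverse complement occurred in 2 of the 9 windows, those of Dock10 and Prox1, against 17.3% of 27026 windows of the same length in all genes. CANNTG occurred in 7 of 9 windows, against 72.1% of all windows, and the CRE TGACGTCA, searched on both strands, in 0 of 9, against 1.85%. These matches are letters in a window and say nothing of binding.

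Levels below are log2 of the quantile-normalised intensity plus 16, and differences are differences of group means on that scale. All 10 genes had a mean level above 5.86, the 95th percentile of the mean levels of 990 olfactory receptor genes, which serve as a guide to background. The control arrays were not alike. Control replicates 2 and 3 had deposited signals of 5034 and 6065 for Ttr, the abundant carrier protein gene of the choroid plexus, against 228 in control replicate 1 and 58.7 to 302 in the 6 other arrays. Control replicate 1 had the highest median deposited signal of the 9 arrays, 100.1, where the others ran from 54.1 to 88.7. Comparisons with control are therefore given for the 10 genes, the other granule cell genes and the endothelial genes without control replicate 1. They are also given against control replicate 1 alone, an alternative chosen after seeing the data. Some named genes of young granule cells and relatives of the 10 genes are given in the same ways.

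**Figure D1:**
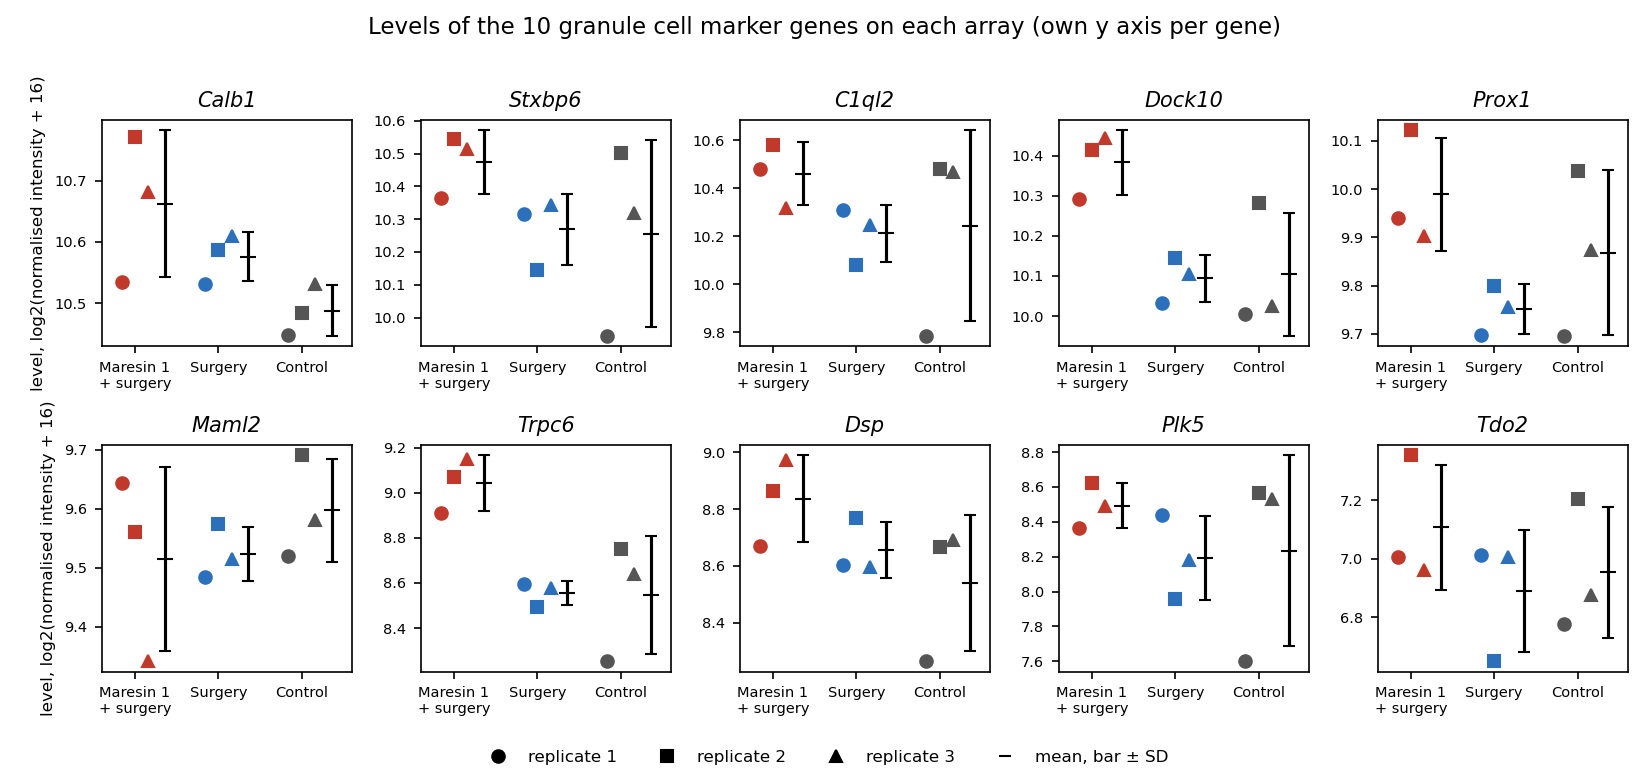
Level of each marker gene, log2 of normalised intensity plus 16, on each of the 9 arrays, with its own vertical axis for each gene. Symbols give the replicate number, and the black mark gives the group mean with a bar of ± SD (n = 3). Trpc6 and Dock10 separate the 3 Maresin 1 arrays from the other 6, and control replicate 1 is lowest of the 9 arrays for 8 genes.

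Among the genes of transcriptional regulators, Prox1 encodes a homeodomain transcription factor that granule cells need to form and to keep their fate. Prox1 stood at 9.94, 10.12 and 9.90 with Maresin 1, 9.70, 9.80 and 9.76 after surgery, and 9.70, 10.04 and 9.87 in control. Each Maresin 1 array lay above each surgery array, while the controls spanned the surgery range and part of the Maresin 1 range. The mean was 9.99 ± 0.12 with Maresin 1, 9.75 ± 0.051 after surgery and 9.87 ± 0.17 in control (SD, n = 3 each). Maresin 1 with surgery differed from surgery alone by 0.24 (SE 0.082), a 1.18-fold difference. Maml2 encodes a mastermind-like coactivator of Notch signalling. Its level was 9.64, 9.56 and 9.34 with Maresin 1, 9.48, 9.57 and 9.51 after surgery, and 9.52, 9.69 and 9.58 in control. These groups overlapped, the difference of Maresin 1 from surgery was -0.0087 (SE 0.076), and Maml2 was the gene of the list that did not stand higher. A dimmer probe set of Maml2 gave a difference of 0.12.

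The signalling and excitability genes held the widest differences. Trpc6 encodes a cation channel opened by diacylglycerol. Its level was 8.91, 9.07 and 9.15 with Maresin 1, 8.59, 8.49 and 8.58 after surgery, and 8.25, 8.75 and 8.64 in control. All 3 Maresin 1 arrays lay above all 6 others. The mean was 9.04 ± 0.12 with Maresin 1, 8.56 ± 0.054 after surgery and 8.55 ± 0.26 in control (SD, n = 3 each). Trpc6 was 1.4-fold higher with Maresin 1 than after surgery (log2 0.49, SE 0.11), at the 99.9th percentile of the differences of all genes. On the deposited scale, before any normalisation, its signals were 463, 490 and 544 with Maresin 1, 259, 400 and 431 after surgery, and 385, 317 and 347 in control, so that here too the Maresin 1 arrays did not overlap the others.

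Dock10 encodes an exchange factor that activates the small GTPases Rac and Cdc42, which shape dendritic spines. Its level was 10.29, 10.41 and 10.44 with Maresin 1, 10.03, 10.15 and 10.10 after surgery, and 10.01, 10.28 and 10.02 in control. The Maresin 1 arrays again lay above all others, although control replicate 2 came close to the lowest of them. The difference from surgery was 0.29 (SE 0.073), or 1.22-fold. Plk5 encodes an atypical member of the polo-like kinase family that is found in brain. Its level was 8.36, 8.62 and 8.49 with Maresin 1, 8.44, 7.96 and 8.18 after surgery, and 7.60, 8.57 and 8.53 in control. Plk5 had the widest spread of the 10 genes, a within-group SD of 0.35 pooled over groups, which exceeded its difference of 0.30 (SE 0.21) between Maresin 1 and surgery. Calb1 encodes calbindin, the calcium buffer that fills granule cells and that CA1 pyramidal cells and interneurons also carry. Its level was 10.53, 10.77 and 10.68 with Maresin 1, 10.53, 10.59 and 10.61 after surgery, and 10.45, 10.48 and 10.53 in control. The difference of Maresin 1 from surgery, 0.086 (SE 0.059), was within the spread of the Maresin 1 arrays (SD 0.12).

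At the synapse, C1ql2 encodes a secreted C1q-like protein that mossy fibres place at their contacts with CA3 neurons. C1ql2 stood at 10.48, 10.58 and 10.32 with Maresin 1, 10.31, 10.08 and 10.25 after surgery, and 9.78, 10.48 and 10.47 in control. Maresin 1 and surgery arrays did not overlap, though the nearest pair was almost level, and controls 2 and 3 lay among the Maresin 1 arrays. The difference was 0.25 (SE 0.15). Stxbp6 encodes amisyn, a protein that binds the SNARE complex and restrains vesicle fusion. Its level was 10.36, 10.54 and 10.52 with Maresin 1, 10.32, 10.14 and 10.34 after surgery, and 9.94, 10.50 and 10.32 in control. The nearest Maresin 1 and surgery arrays were again almost level, and the difference was 0.21 (SE 0.11).

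The remaining genes mark granule cells without a settled role there. Dsp encodes desmoplakin, which anchors filaments at desmosomes of epithelia and heart. It stood at 8.67, 8.87 and 8.97 with Maresin 1, 8.60, 8.77 and 8.60 after surgery, and 8.26, 8.66 and 8.69 in control, with overlap and a difference of 0.18 (SE 0.11) between Maresin 1 and surgery. A dimmer probe set of Dsp, at a mean of 6.22, gave -0.11 for the same difference. Tdo2 encodes tryptophan 2,3-dioxygenase, which opens the kynurenine pathway of tryptophan breakdown. It stood at 7.01, 7.35 and 6.96 with Maresin 1, 7.01, 6.65 and 7.01 after surgery, and 6.78, 7.20 and 6.88 in control. Maresin 1 replicate 2 and surgery replicate 2 set its difference of 0.22 (SE 0.14), while the other operated arrays lay between 6.96 and 7.01.

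**Figure D2:**
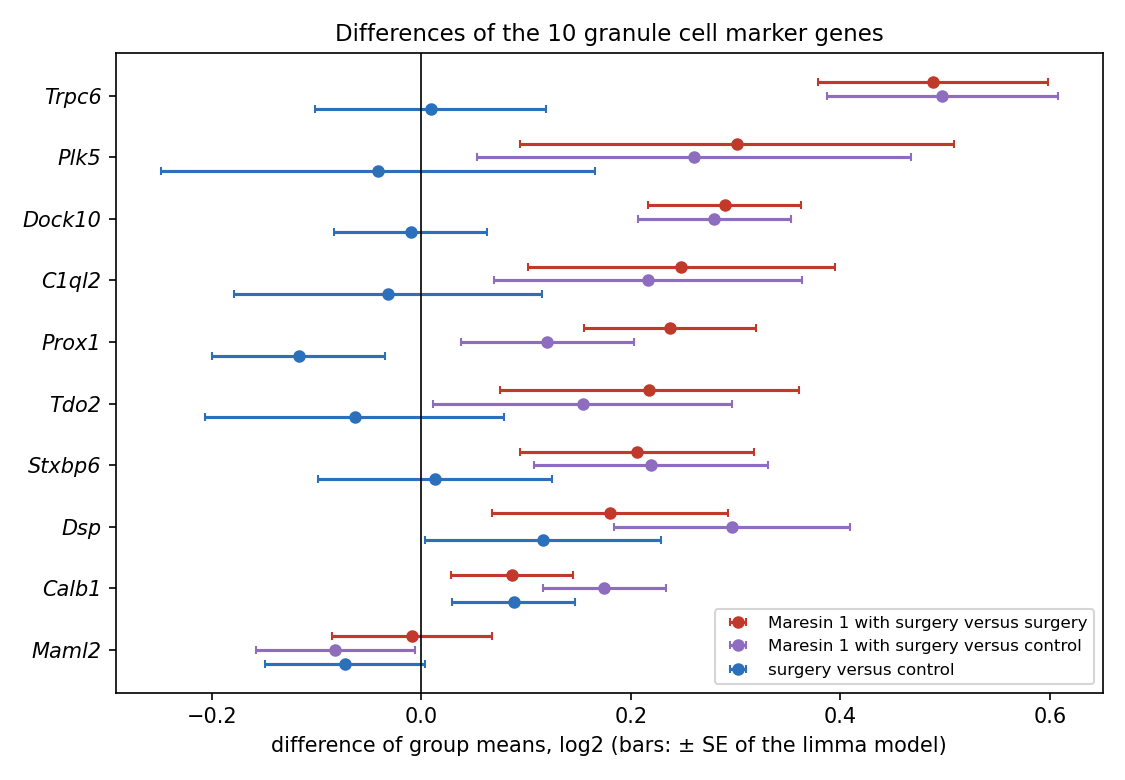
Differences of group means for the 10 marker genes, log2 units on the horizontal axis, with bars of ± SE from the limma model. Points of both comparisons with Maresin 1 lie mostly to the right of 0, with Trpc6 near 0.49 in each, and points of surgery against control lie on both sides, between -0.12 and 0.12.

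Over the list, 9 of 10 genes stood higher in Maresin 1 arrays than in surgery arrays, against 41.7% of all genes, with a median difference of 0.23, against -0.019 over all genes. The arrays of these groups did not overlap, with Maresin 1 higher, for 5 genes, Trpc6, Dock10, C1ql2, Prox1 and Stxbp6, where 4.79% of all genes did so, and 0 genes of the list were lower without overlap, where 8.2% of all genes were. The list was chosen with this contrast known, so these counts describe it and support nothing. They also depended on how arrays were put on one scale. With the arrays scaled to one median the count without overlap was 1, with 1.77% of all genes, and with each array centred on its median it was 3, with 3.10% of all genes. Without scaling the count was 1, with 1.04% of all genes. Trpc6 alone of the 10 was without overlap under each of the 4 scalings tried, no scaling included. The share of all genes that did so under each of the 4 was not counted.

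Surgery was compared with control to describe granule cell genes 72 h after fracture surgery. The surgery arrays also entered the contrast that was known when the list was proposed, so values of this comparison are not free of that choice. Here the genes split, with 4 higher and 6 lower, against 58.4% of all genes higher and 41.6% lower, and a median difference of -0.021, against 0.019 over all genes. Prox1 differed most on the lower side, by -0.12 (SE 0.082, adjusted p = 0.841), and Dsp most on the higher side, by 0.12 (SE 0.11, adjusted p = 0.897). Trpc6 differed by 0.0089 (SE 0.11) and Dock10 by -0.010 (SE 0.073). With limma and Benjamini-Hochberg adjustment over all genes, 0 of 10 were called, and 0 of 18820 genes (0%) in all. At an unadjusted p under 0.05 it was 0 of 10, against 6.21% of all genes. In none of the 10 genes did the groups separate, where 7.71% of all genes were higher and 3.82% lower without overlap. SE ran from 0.059 for Calb1 to 0.21 for Plk5, and the lack of calls does not show that these genes did not differ.

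The split of this comparison depended on the arrays kept and on the scaling. With each array centred on its median 7 genes were higher and 3 lower, and with arrays scaled to one median 9 were higher and 1 lower, where that scaling also put the median of all genes at 0.10. Without control replicate 2 the list had 8 genes higher, with a median of 0.086, without control replicate 3 it had 6, with a median of 0.050, and without surgery replicate 2 it had 7, with a median of 0.048. Without control replicate 1 the list had 1 gene higher and 9 lower, with a median of -0.14, and against control replicate 1 alone it had 10 higher, with a median of 0.22. Prox1 was at -0.20 without control replicate 1 and 0.056 against it alone, and C1ql2 at -0.26 and 0.43. Without control replicate 1 none of the 10 genes was called by limma, where 167 of 18820 genes were. All 10 measured choroid plexus genes were among the 167, lower after surgery with a median of -3.15. The controls kept there were replicates 2 and 3, those with high Ttr. In the fit against control replicate 1 alone, that control was assumed to vary like the other groups.

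The Maresin 1 arrays were then set against control to ask how far treated mice stood from mice without surgery. Here 9 of 10 genes were higher, against 49% of all genes, and 1 was lower, against 51%, with a median of 0.22, against -0.0032 over all genes. This comparison shares the Maresin 1 arrays with the contrast that was known when the list was proposed. Trpc6 was 1.41-fold higher (log2 0.50, SE 0.11, adjusted p = 0.109) and Dock10 1.21-fold higher (log2 0.28, SE 0.073, adjusted p = 0.171). Calb1 was higher by 0.17 (SE 0.059, adjusted p = 0.266) and Dsp by 0.30 (SE 0.11, adjusted p = 0.320), the last at 0.16 without control replicate 1. Maml2 stood at -0.082 (SE 0.076). None of the 10 genes was called by limma, where 16 of 18820 genes, 0.085%, were called in all. At an unadjusted p under 0.05 there were 4 of 10, the 4 just named before Maml2, against 11.5% of all genes. Groups did not overlap, with Maresin 1 higher, for Trpc6, Dock10 and Calb1, 3 of 10 genes, against 7.61% of all genes, and for 0 with Maresin 1 lower, against 6.71%. Which genes did so depended on the scaling. They were Trpc6, Dock10 and Dsp with each array centred on its median, and Trpc6 and Dock10 with arrays scaled to one median. Without scaling they were Trpc6 and Dsp, so Calb1 separated after quantile normalisation only. Without control replicate 1 the median was 0.064, with 7 genes higher and 3 lower, and C1ql2 and Plk5 stood at -0.013 and -0.056. None of the 10 was called there, where 245 of 18820 genes were. The 245 included all 10 measured choroid plexus genes, lower with Maresin 1 by a median of -3.13 against control replicates 2 and 3. Against control replicate 1 alone, the alternative chosen after seeing the data, the median was 0.45, and 1 of the 10 genes was called by limma, Trpc6 (0.80, adjusted p = 0.0281), among 4 of 18820 genes in all. That control held the lowest Trpc6 level of the 9 arrays, 8.25, the Maresin 1 arrays are those the list was proposed on, and the lone control was assumed to vary like the other groups.

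Endothelial genes were also read in the comparisons with control. All 5 measured, Pecam1, Cldn5, Flt1, Cdh5 and Slco1a4, stood higher with Maresin 1 than in control, where 49% of all genes did so. The differences ran from 0.21 to 0.49, with a median of 0.39, and all 5 genes lay above the olfactory receptor level. Their list score was 0.32, -0.14 and 0.16 with Maresin 1, 0.15, 0.15 and 0.12 after surgery, and -0.23, -0.22 and -0.31 in control, so that all operated arrays lay above all controls. Their summed levels ran from 41.5 to 43.8 with Maresin 1, 42.8 to 42.9 after surgery and 40.6 to 41.1 in control. In surgery against control all 5 were higher too, against 58.4% of all genes, with a median of 0.36. None of the 5 was called by limma in either comparison over all arrays. Without control replicate 1 the medians were 0.38 with Maresin 1 and 0.39 after surgery. There 1 and 2 of the 5 genes were called, among 245 and 167 of 18820 genes. Against control replicate 1 alone the medians were 0.40 and 0.39. Maresin 1 replicate 2, highest for 6 granule cell genes, was the lowest operated array for endothelium, and the part of endothelial content in the granule cell values was not tested.

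**Figure D3:**
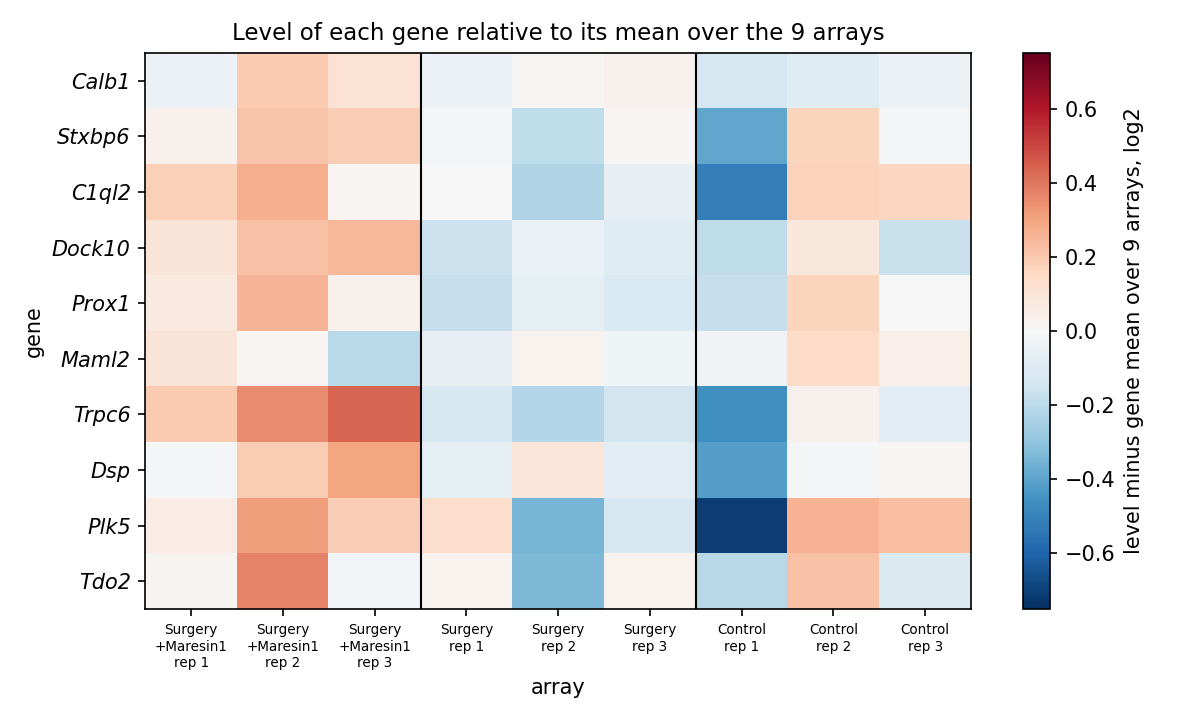
Level of each marker gene on each array minus its mean over the 9 arrays, in log2 units, red for above and blue for below, with arrays in columns and genes in rows. Values run from -0.71 for Plk5 in control replicate 1 to 0.44 for Trpc6 in Maresin 1 replicate 3, and control replicate 1 is below the mean for all 10 genes.

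The spread among controls was as wide as the differences between groups. All 10 genes were lower in control replicate 1 than in both other controls, by a median of 0.34 on the log2 scale against their mean, where the median over all genes was 0.016. Plk5 differed by 0.95 between these controls, C1ql2 by 0.69, Stxbp6 by 0.47 and Trpc6 by 0.44, and Calb1 by 0.060. For 8 of 10 genes the range of the 3 controls was wider than the difference between Maresin 1 and surgery, Dock10 and Calb1 being the exceptions. The control group also had the largest SD of the 3 groups for 8 genes. The place of control replicate 1 moved with the scaling. It was the lowest control for 10 genes after quantile normalisation, 7 after centring on the median, 6 after scaling to one median and 1 in the deposited signals. The score of the list, the mean over its genes of the level minus the gene's own mean, was 0.070, 0.24 and 0.13 with Maresin 1, -0.049, -0.13 and -0.057 after surgery, and -0.32, 0.12 and 0.0035 in control. All 3 Maresin 1 arrays lay above the 2 higher controls for 3 genes, so that for the other 7 the higher controls reached into the Maresin 1 range.

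Genes of the granule cell known from elsewhere, listed apart from the 10, were read on the same arrays. Of 17 such genes 13 were measured by a probe set of 1 gene. All 13 stood higher in Maresin 1 arrays than in surgery arrays, against 41.7% of all genes, with a median of 0.16, and 6 did so without overlap, against 4.79% of all genes. This list too was written with earlier results known. Synpr, a synaptic vesicle protein gene of mossy fibres, differed by 0.62 (SE 0.34), at 8.65, 10.17 and 9.94 with Maresin 1, 9.28, 9.17 and 8.45 after surgery, and 9.0, 9.25 and 9.86 in control. Those groups overlapped, and Maresin 1 replicate 1 was among the lowest arrays. The transcription factor gene Glis3 differed by 0.25 (SE 0.14), the oxysterol hydroxylase gene Cyp7b1 by 0.20 (SE 0.083) and the lactase gene Lct by 0.18 (SE 0.15). Scores of this list were 0.0027, 0.14 and 0.13 with Maresin 1, -0.022, -0.065 and -0.14 after surgery, and -0.23, 0.084 and 0.10 in control, with control replicate 1 again lowest. In surgery against control 4 were higher and 9 lower, with a median of -0.032. Without control replicate 1 all 13 were lower, with a median of -0.11, and against it alone 12 were higher, with a median of 0.14. In Maresin 1 against control 11 were higher and 2 lower, with a median of 0.13, against 7 and 6 with a median of 0.024 without control replicate 1, and 13 higher with a median of 0.31 against it alone. None of the 13 was called in either comparison with control under any of these choices.

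Pyramidal neurons of the neighbouring fields were read on the same arrays, as a measure of the balance between fields in each sample. Of 9 CA1 genes measured, 8 were lower with Maresin 1 than after surgery, against 58.3% of all genes, with a median of -0.13, and 3 were lower without overlap, against 8.2% of all genes. The CA1 genes Fibcd1, Ccn3, Mpped1 and Gpr161, with the widest differences, stood at -0.28, -0.25, -0.22 and -0.17. Wfs1, first on the CA1 list, differed by -0.053 (SE 0.10), Man1a by -0.0013 and Ndst4, the 1 gene that was higher, by 0.046. The score of the CA1 list was 0.0054, -0.15 and -0.038 with Maresin 1, 0.058, 0.050 and 0.10 after surgery, and 0.048, -0.14 and 0.060 in control. Maresin 1 replicate 2, highest of the 9 arrays for 6 granule cell genes, was the lowest for CA1, and control replicate 2, the control with the highest mean score of the 10 genes, was the lowest control for CA1. Control replicate 3 was the higher one for Dsp, for Calb1 and for the score of the other granule cell genes. The score of the granule cell genes minus that of CA1 was 0.065, 0.39 and 0.17 with Maresin 1, -0.11, -0.18 and -0.16 after surgery, and -0.37, 0.25 and -0.056 in control. The operated groups thus did not overlap in this balance, and the controls spanned nearly the whole range. The 10 genes were proposed on this contrast, and after quantile normalisation their score alone separated these groups. The separation therefore describes the list and supports nothing. List scores also separated these groups with each array centred on its median. With arrays scaled to one median they overlapped, the lowest Maresin 1 score being -0.062 and the highest surgery score 0.052. Without scaling they overlapped too, at 0.084 and 0.19. The summed levels of the 9 CA1 genes ran from 89.0 to 90.4 with Maresin 1, 90.8 to 91.2 after surgery and 89.1 to 90.9 in control, and all 9 genes lay above the olfactory receptor level.

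CA3 genes showed a median of -0.012 between Maresin 1 and surgery, with 2 of 6 higher, and CA2 genes 0.020, with 3 of 4 higher. Some lists beyond these fields also lay mostly to 1 side in this contrast. With Maresin 1, 7 of 8 thalamus genes, 7 of 8 general excitatory neuron genes and 4 of 5 subiculum genes were lower than after surgery. Their medians were -0.062, -0.037 and -0.062, where 58.3% of all genes were lower. All 4 oligodendrocyte genes were higher, against 41.7% of all genes, with a median of 0.14. Choroid plexus genes, 10 measured, summed to 64.3 to 66.3 with Maresin 1, 62.5 to 65.2 after surgery and 62.5 to 100.5 in control. Control replicates 2 and 3 held the high sums, and the part of choroid plexus tissue in the control values was not tested. Whether the amount of dentate gyrus in each dissected sample, or treatment of the animals, moved the granule cell genes was not tested, and in bulk arrays both cannot be told apart.

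**Figure D4:**
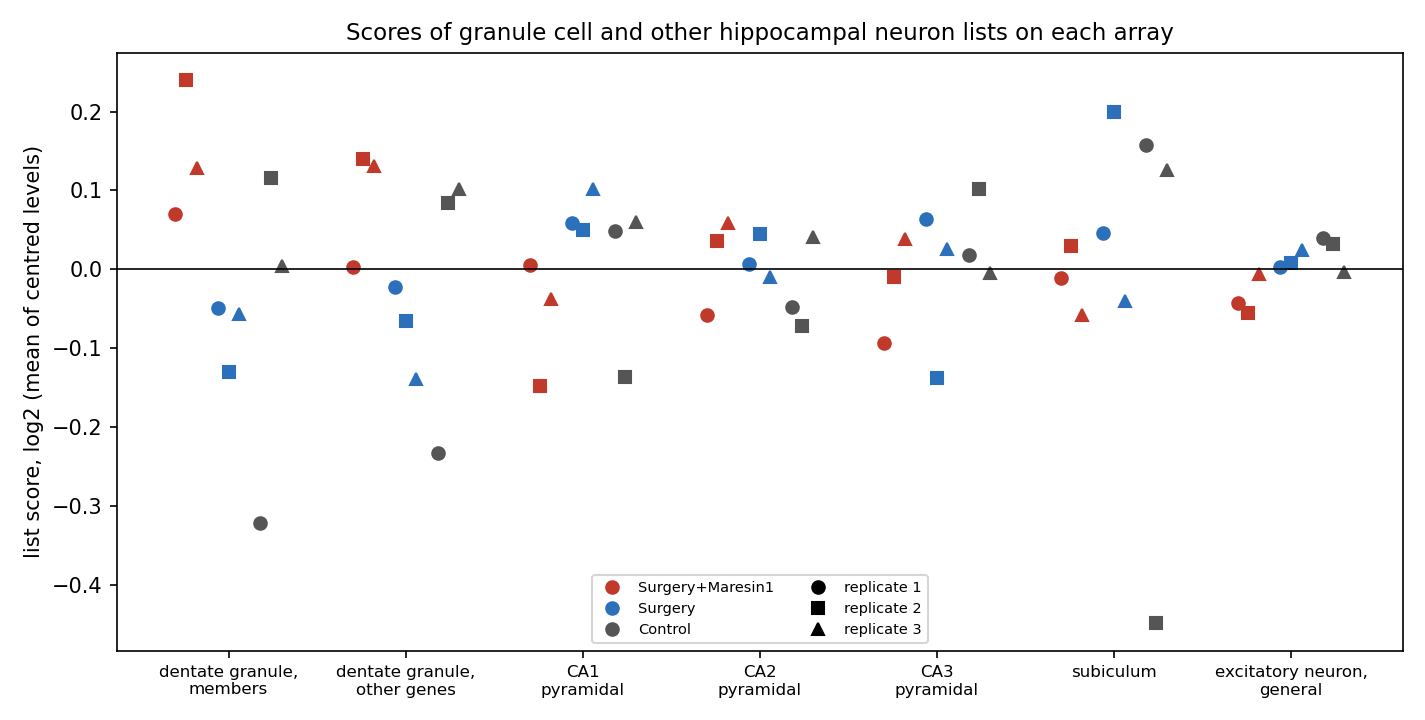
Score of each gene list on each array, the mean over its genes of the level minus the gene's mean over 9 arrays, in log2 units on the vertical axis, with colours for groups and symbols for replicates. After quantile normalisation, both granule cell lists score above 0 in the Maresin 1 arrays and below 0 in the surgery arrays. CA1 scores of the same arrays lie mostly the other way.

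Young granule cells and their progenitors gave a mixed picture. Of 9 such genes 5 were higher and 4 lower with Maresin 1 than after surgery, with a median of 0.062. Igfbpl1, a marker of newborn neurons, differed by 0.46 (SE 0.12) and Eomes, of intermediate progenitors, by -0.32 (SE 0.27). Both were dim, at mean levels of 6.39 and 6.25, near the olfactory receptor level of 5.86. Neurod1, at a mean level of 8.95, differed by -0.013 (SE 0.12). Calb2, calretinin, of immature granule cells, mossy cells and interneurons, differed by -0.29 (SE 0.19), and Dcx, doublecortin, by 0.12 (SE 0.071). Against control, Igfbpl1 was higher with Maresin 1 by 0.56 (SE 0.12, adjusted p = 0.0911) and Sox11, a factor of young neurons, by 0.34 (SE 0.091, adjusted p = 0.177), and none of the 9 was called. Without control replicate 1 these differences were 0.52 (adjusted p = 0.0680) and 0.33 (adjusted p = 0.159), and against it alone 0.63 and 0.35. Of 5 mossy cell genes, 2 were higher and 3 lower with Maresin 1 than after surgery.

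Relatives and partners of the 10 genes were spread around 0, at a median of -0.016 between Maresin 1 and surgery over 20 measured genes, 9 higher and 11 lower, near the median of all genes. Pvalb, parvalbumin, a calcium buffer of fast-spiking interneurons, differed by -0.16 (SE 0.096), and Stxbp5l, of the tomosyn family, by 0.092 (SE 0.068). Dock9, an exchange factor related to Dock10, differed by 0.0033 (SE 0.061). In Maresin 1 against control, Dock11 was at 0.21 (adjusted p = 0.302), Trpc7, a channel related to Trpc6, at 0.19 (adjusted p = 0.618) and Prox2 at 0.18 (adjusted p = 0.633). Prox2 had a mean level of 5.54, below the olfactory receptor level, so its differences lie in the range of background. After surgery against control, Rbpj, the DNA-binding partner of Notch and mastermind proteins, was at 0.18, the desmosomal plakophilin gene Pkp2 at 0.17 and Plk3 at 0.13, and 0 of 20 were called in either comparison with control. Without control replicate 1 Rbpj, Pkp2 and Plk3 stood at 0.21, 0.27 and 0.27 after surgery, and against it alone at 0.11, -0.037 and -0.15. In Maresin 1 against control, Dock11, Trpc7 and Prox2 were at 0.22, 0.16 and 0.20 without control replicate 1, and at 0.18, 0.27 and 0.13 against it alone. Of 11 measured enzymes from tryptophan to the kynurenine products, 3 lay above the olfactory receptor level, Tdo2, Kyat1 and Kyat3. Ido1 and Ido2, other enzymes that open the pathway, lay below that level.

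The profile of the list over the 9 arrays was set against every other gene with a mean level above the median gene and at least its SD over arrays, 777 genes. Likeness was the mean absolute difference of centred levels over the 9 arrays. The nearest was Npnt, nephronectin, an extracellular matrix gene that is itself on the list of other granule cell genes, at 0.051. It was followed by the replication helicase gene Mcm6 at 0.068, then Lhfpl2 at 0.069, Rnft1 at 0.075, Plekha2 at 0.076 and Spag6l at 0.081. Npnt was higher by 0.16 with Maresin 1 than after surgery and by 0.079 after surgery than in control. The last stood at -0.066 without control replicate 1. Npnt was picked by its likeness to this profile, so these differences are not free of that choice. Among the 10 genes, Stxbp6 lay nearest to the mean of the other 9, at 0.052, and Plk5 and Maml2 farthest, at 0.17 and 0.14.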

How the data were processed

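Hippocampal RNA of 9 mice, 3 per group, 6 µg per array, was hybridised to an Affymetrix gene array, and groups were taken from the sample titles. The deposited values are linear intensity per probe set, made by the authors. The submitters' processing notes name Affymetrix Expression Console, and its version, its algorithm and a genome build were not given in the sources used here. No scaling between arrays was visible, as median intensity ran from 54.1 to 100.1. The 35556 probe sets were quantile normalised, 16 was added and log2 taken. Of them 21218 name 1 gene, 1881 several and 12457 none in the probe table used; 21185 matched the gene table, and the highest-mean probe set stood for each of 18820 genes, with no filter on dim genes.

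Groups were compared with limma 3.58.1 in R 4.3.3, in 1 model over 9 arrays with a variance prior that follows the mean, and a gene was called where its p, adjusted by Benjamini-Hochberg across all genes tested, was under 0.05. SE are from that model and SD are between arrays. The scripts were tested on simulated data. Alternatives changed the pseudocount, scaling, dim gene filter, probe set rule, variance prior, groups in the fit and arrays left out. The number of arrays limits the precision. The 10 genes, the gene lists and the naming rule were chosen with earlier results of these data known. The rule names all 10 genes, up to 4 genes per other list with the largest difference plus its opening 2, and the 6 genes nearest in pattern. Likeness left out gene models, small RNAs and chemoreceptor genes. Same-numbered replicates of different groups did not deviate together (r from -0.24 to 0.05 across genes), so numbers were not used as pairs.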

Additional observations from a re-analysis of the deposited data

How the results depend on the processing

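The differences of the 10 genes were recomputed under up to 20 other settings, 1 of them, leaving out control replicates 2 and 3, chosen after seeing the data. Adding the replicate block called 0 of 10 genes in surgery against control and 0 of 10 in Maresin 1 against control, with smallest adjusted p of 0.987 and 0.178, and 0 genes of the whole array in the second, against 16. Over all settings 0 of 10 were called in surgery against control. In Maresin 1 against control 1 of 10 was called against control replicate 1 alone, Trpc6 at 0.80, and 0 otherwise. Scaling to one median put the median of the 10 genes at 0.15 in surgery against control and 0.080 in Maresin 1 against surgery. Against control replicate 1 alone the median was 0.22 for surgery and 0.45 for Maresin 1. Leaving out 1 array in turn gave medians from -0.14 to 0.086 for surgery against control, 0.17 to 0.27 for Maresin 1 against surgery and 0.064 to 0.34 for Maresin 1 against control, lowest in the last without control replicate 1. Over all genes, calls in surgery against control numbered 167 without control replicate 1, 37 with scaling to one median, 42 without normalisation and 1 with centring, against 0 in the reported fit. In Maresin 1 against control they numbered 245 without control replicate 1, 50 with dim genes left out, 38 with scaling to one median and 43 without normalisation, against 16, and 0 with centring, with only the 2 groups fitted or with a prior that does not follow the mean. Leaving out any other single array gave 0 to 15, and control replicate 1 alone gave 4. Leaving out dim genes removed Tdo2, so 9 genes of the list were tested there.

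In surgery against control 32 of 199 values changed sign, all uncalled. Centring gave Dock10 0.052, C1ql2 0.035 and Plk5 0.0018, scaling to one median gave Prox1 0.056, Dock10 0.16, C1ql2 0.14, Plk5 0.099 and Maml2 0.097, and no normalisation gave Dock10 0.016. Against control replicate 1 alone Prox1 was 0.056, Dock10 0.089, C1ql2 0.43, Tdo2 0.12, Plk5 0.60 and Maml2 0.0045. Leaving out 1 array gave ranges of -0.058 to 0.079 for Dock10, -0.14 to 0.11 for Trpc6, -0.26 to 0.085 for C1ql2, -0.022 to 0.19 for Dsp, -0.15 to 0.063 for Tdo2, -0.36 to 0.13 for Plk5 and -0.14 to 0.14 for Stxbp6. In Maresin 1 against control the ranges that crossed 0 were -0.013 to 0.33 for C1ql2, -0.056 to 0.43 for Plk5 and -0.15 to 0.0048 for Maml2. Of 189 values of Maresin 1 against surgery, 5 moved by more than the SD between arrays. Of these, Calb1 and Maml2 stood at -0.086 and -0.15 with scaling to one median. The cause of these shifts was not tested.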
